A study of Rattus norvegicus with 9 samples.

Results

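The genes described here encode the proteins of the cytosolic ribosome, the particle that translates messenger RNA outside the mitochondria. They were the protein-coding rows of the count table whose symbol is Rpl or Rps with a number, Rplp0 to Rplp2, or Rpsa: 87 rows of 35360, with 81 distinct symbols. RNA came from rat femoral fractures, sampled at the middle of the fracture. The 9 poly-A RNA libraries fell into 3 groups of 3. Mg-ALN gel fractures received a gel with a metal-organic framework of magnesium and alendronate (ALN), a bisphosphonate drug that blocks bone resorption. ALN gel fractures received the same gel with ALN alone, and Gel fractures the gel alone. The labels give no strain, sex, age or time after fracture, and do not say whether the libraries of a group came from separate animals, so p-values here measure a spread among samples that may be technical. The series title speaks of osteoporotic fractures, but no label says how bone loss was produced.

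A ribosome has a small subunit, which reads the messenger RNA, and a large subunit, which joins amino acids and carries a flexible stalk of acidic proteins that recruits elongation factors. Each ribosome needs its proteins in fixed proportion, and mammalian genomes hold 1 active gene for most of them beside many processed copies that lie without introns elsewhere. Their messenger RNAs typically begin with a C and a stretch of pyrimidines, the 5′ terminal oligopyrimidine tract, through which mTOR and LARP1 control their translation as a group.

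The reference sequence shows runs of this kind at many of these starts. Of 69 standard ribosomal protein symbols with rows in the count table, 53 had a single promoter on the same chromosome in the RefSeq promoter table of build GRCr8. The 30 bases from 10 before to 20 after the annotated start were searched for an unbroken run of at least 6 bases that are each C or T. Such a run stood on the transcript strand in 39 of these 53 windows (73.6%), with a median longest run of 9 bases, against 27.1% of all 33469 promoters in the table. On the other strand it stood in 15.1% of the ribosomal protein windows and 32.3% of all windows. The small subunit genes had it in 14 of 19 windows, the large subunit genes in 23 of 31 and the stalk genes in 2 of 3. The windows below show long runs (Rps23, Rpl27a and Rps24, chosen for length), genes described further on (Rplp0, Rplp1, Rpl5 and Rps21) and genes described further on whose window holds no such run (Rplp2, Rps6 and Rpl11). Capitals mark the longest run of C or T, and each sequence runs 5′ to 3′ on the transcript strand.
Rps23: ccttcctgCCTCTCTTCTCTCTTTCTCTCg
Rpl27a: cttggtgggCTCCTCCCTCTTTCTTTTCTg
Rps24: ggTCCTCTTTTCCTCCTTTacagctcgggc
Rplp0: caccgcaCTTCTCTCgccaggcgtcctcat
Rplp1: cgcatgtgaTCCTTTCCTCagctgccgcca
Rpl5: CTTTCCCacgtcgcttgcgtcctggaggtg
Rps21: agccaCTTCCTTTCTgtgttctccgtagac
Rplp2: cgccgccggacgccgccgaggtcgcacgcg
Rps6: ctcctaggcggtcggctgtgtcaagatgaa
Rpl11: cttgaagcttgtttggtgctggggagcatc
In GRCr8 the windows lie at chr2:23814507-23814536 (plus strand) for Rps23, chr12:46718371-46718400 (minus strand) for Rplp0, chr8:71290853-71290882 (minus strand) for Rplp1 and chr1:205975911-205975940 (plus strand) for Rplp2. The search shows letters and not a tract in use, and annotated starts can lie off the true start. The 36 tested rows with a run had a median log2 fold change of 0.96 in ALN gel against Gel, and the 13 without one had 0.88; symbols with more than 1 row, and Rpl10a with no counts, were left out here.

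Libraries held 13388689 to 18763270 counts. Ribosomal protein rows took 6.21%, 4.26% and 3.18% of the counts in Mg-ALN gel libraries 1 to 3. The shares were 5.01%, 5.53% and 4.85% in ALN gel, against 3.75%, 3.14% and 2.84% in Gel. Mitochondrially encoded genes took from 4.16% of the counts (Gel library 3) to 39.5% (ALN gel library 1), with 31.6% in Mg-ALN gel library 3. CPM below are counts relative to library sizes scaled by edgeR's TMM method. As a share of the counts that were not mitochondrial, ribosomal protein rows made up 6.99%, 4.77% and 4.65% in Mg-ALN gel. ALN gel libraries held 8.28%, 6.56% and 5.25%, against 4.54%, 3.32% and 2.96% in Gel. Each ALN gel library stood above each Gel library on both measures, and so did Mg-ALN gel libraries 1 and 2. Mg-ALN gel library 3 did so by share of the counts that were not mitochondrial, and lay between Gel libraries 1 and 2 by share of all counts. Osteoblast markers, which define bone-forming cells, were detected in every library for all 10 markers checked. Their sums were 35090 to 44899 CPM in Mg-ALN gel, 25342 to 37388 CPM in ALN gel and 52862 to 112100 CPM in Gel. Fold changes of single markers were negative in 7 of 10 for ALN gel against Gel and in all 10 for Mg-ALN gel against Gel. For Mg-ALN gel set against ALN gel 4 were positive and 6 negative, although the sums ranged higher in Mg-ALN gel. In each comparison 0 of the 10 passed edgeR's test after Benjamini-Hochberg adjustment.

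Levels per length were high and uneven. Over the 73 tested rows of standard ribosomal proteins the mean FPKM, the authors' value per gene length averaged here over 9 libraries, had a median of 799 and ran from 2.28 to 3219, and 66 rows reached 100 FPKM. The highest were Rpl41, a very small large subunit protein, at 3219 FPKM, Rplp1 at 2182 FPKM and Rps29 at 1977 FPKM. The lowest tested was a Rpl21 row without introns on chromosome 3, and the rows named Rpl10a and Rpl23a were listed at 0 in all 9 libraries. Of the 87 rows, 84 passed the filter on low counts; the other row that did not was Rpl30l1, with 1 count in Mg-ALN gel library 1 and 1 in ALN gel library 3. Of 77 standard names on the list used here, 8 were not analysed here under those names: Rps9, Rps13, Rps14, Rps26, Rpl22, Rpl35a, Rpl37 and Rpl38. Gene lengths in the deposited table ran from 246 bases (Rps21) to 5151 bases (Rpl7), and a long annotated length lowers FPKM: Rpl7 averaged 182 FPKM with counts close to those of Rpl5, which averaged 799 FPKM.

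The values of these genes varied together between libraries. After each gene was centred on its own mean log2 CPM, the median over the 84 tested rows was 0.67, −0.10 and −0.16 in Mg-ALN gel libraries 1 to 3. It was 0.69, 0.38 and 0.03 in ALN gel, against −0.17, −0.56 and −0.83 in Gel. The 3 Gel medians were the lowest of all, the ALN gel medians did not overlap them, and Mg-ALN gel library 1 stood apart from its group at the level of ALN gel library 1. Gel library 3 was the lowest library for 70 of the 84 rows, and the highest library was Mg-ALN gel 1 for 37 rows and ALN gel 1 for 33. A single row had a median SD of 0.57 over the 9 libraries on the log2 scale, near the 0.56 of all tested genes. Once each library's median was subtracted, this SD was 0.24, and it was under 0.3 in 50 rows. In bulk RNA, a larger share of cells rich in ribosomal protein messenger RNA and more of it per cell cannot be told apart.

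**Figure D1:**
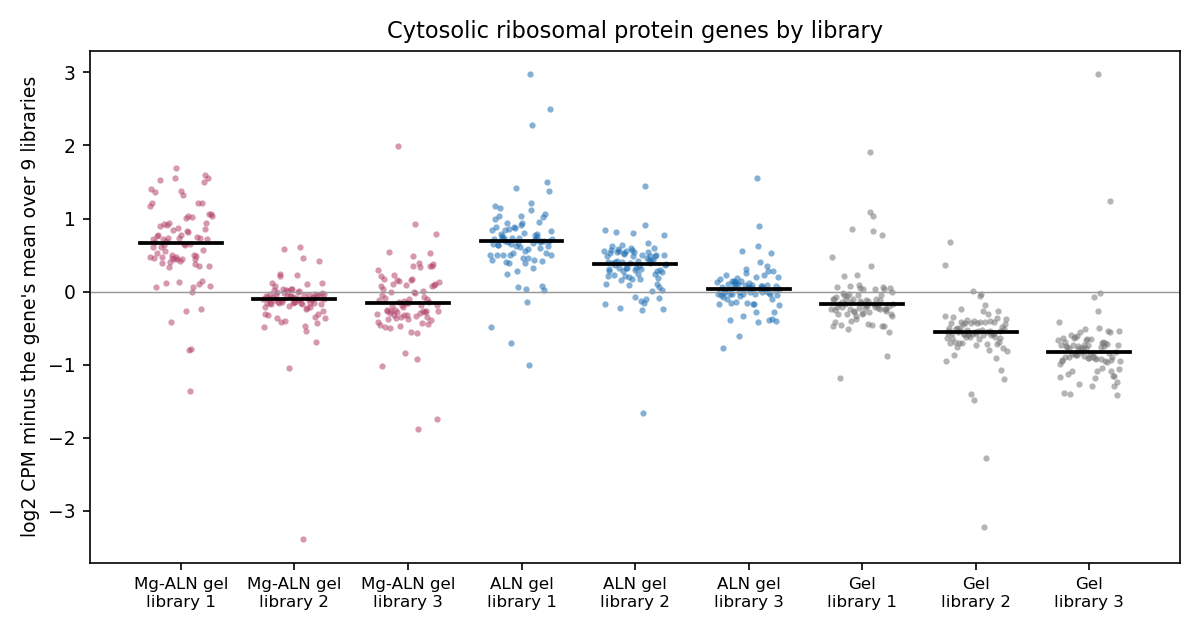
Each point is 1 of the 84 tested ribosomal protein rows, plotted as log2 CPM minus the gene's own mean over the 9 libraries, and black bars are medians over rows. The bars of the 3 Gel libraries lie at −0.17, −0.56 and −0.83, and the bars of Mg-ALN gel library 1 and ALN gel library 1 are highest, at 0.67 and 0.69.

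ALN gel against Gel asks what the bisphosphonate in the gel goes with. Fold changes were positive in 79 of 84 rows, with a median log2 fold change of 0.91, against −0.0014 over all 15460 tested genes. In 60 rows every ALN gel library lay above every Gel library (11.1% of all tested genes did so), and in 0 rows below (5.03% of all genes). No row passed the threshold of 0.05 after Benjamini-Hochberg adjustment in edgeR's quasi-likelihood test, as for all genes (0% called); the lowest adjusted p of a ribosomal protein row was 0.505. At an unadjusted p under 0.05, 53 rows were higher (5.78% of all genes) and 0 lower (2.42%). After adjustment DESeq2 called 5 of the 83 rows to which it gave an adjusted p, all higher (0.959% of all genes with an adjusted p, in either direction): Rps10l1, Rpl39, Rps20, Rpl9 and the Rpl21 row on chromosome X. Limma-voom with quality weights called 16 of 84, all higher (1.7% of all genes). In fits with 1 library fewer, the number of higher rows at an unadjusted p under 0.05 was 17 with Gel library 2 left out (2.99% of all genes) and 10 with Gel library 3 left out (2.27%). For ALN gel it was 22 with library 1 left out (3.07%) and 18 with library 2 left out (2.92%). Without both libraries of the highest mitochondrial share it was 12 (2.40%), with 78 of 84 rows positive and a median of 0.67.

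Mg-ALN gel against ALN gel sets the gel with the magnesium framework against the gel with ALN alone. These groups differ in magnesium and in the form of the ALN, which cannot be told apart here. Here 22 rows had positive and 62 negative fold changes, with a median log2 fold change of −0.20, against −0.04 over all genes. In 2 rows all Mg-ALN gel libraries lay above all ALN gel libraries (6.76% of all genes), and in 3 rows below (9.77%). edgeR's quasi-likelihood test called 0 rows after Benjamini-Hochberg adjustment (0% of all genes), with a lowest adjusted p of 0.496, and at an unadjusted p under 0.05 it gave 1 row higher (3.76%), Rps4y2, and 2 lower (5.43%), Rplp2 and 1 of the Rpl7a rows. DESeq2 called 1 row, Rplp2, as lower (1.22% of all genes in either direction), and limma-voom with quality weights 0 (0.0129%). The median depended on single libraries. With 1 Mg-ALN gel library left out it was −0.51 (library 1), 0.01 (library 2) or −0.08 (library 3). With 1 ALN gel library left out it was −0.01 (library 1), −0.12 (library 2) or −0.33 (library 3), and it was 0.13 without both libraries of the highest mitochondrial share.

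Mg-ALN gel against Gel shares its Gel libraries with the first comparison. Fold changes were positive in 78 of 84 rows, with a median log2 fold change of 0.72, against −0.03 over all genes. In 29 rows the Mg-ALN gel libraries all lay above the Gel libraries (9.76% of all genes), and in 0 rows below (8.56%). edgeR's quasi-likelihood test again called 0 rows after Benjamini-Hochberg adjustment (0% of all genes), with a lowest adjusted p of 0.530; DESeq2 called 1, Rps20 (0.332% of all genes), and limma-voom with quality weights 0 (0%). At an unadjusted p under 0.05, 30 rows were higher (5.43%) and 0 lower (3.88%). Without Mg-ALN gel library 1 the median was 0.38 and the higher rows at that p numbered 8 (3.05% of all genes). Leaving out Gel library 3 gave 6 (1.82%), Gel library 2 gave 10 (3.43%) and ALN gel library 2 gave 18 (3.68%). In the joint test of the 3 groups, 0 rows passed (0% of all genes) and 29 had an unadjusted p under 0.05 (9.29% of all genes); DESeq2 called 3, Rplp2, Rps10l1 and Rps20 (1.71% of all genes), and limma-voom 0 (0.181%). Group means ran ALN gel, Mg-ALN gel, Gel from high to low in 56 of the 84 rows, and Mg-ALN gel, ALN gel, Gel in 19.

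**Figure D2:**
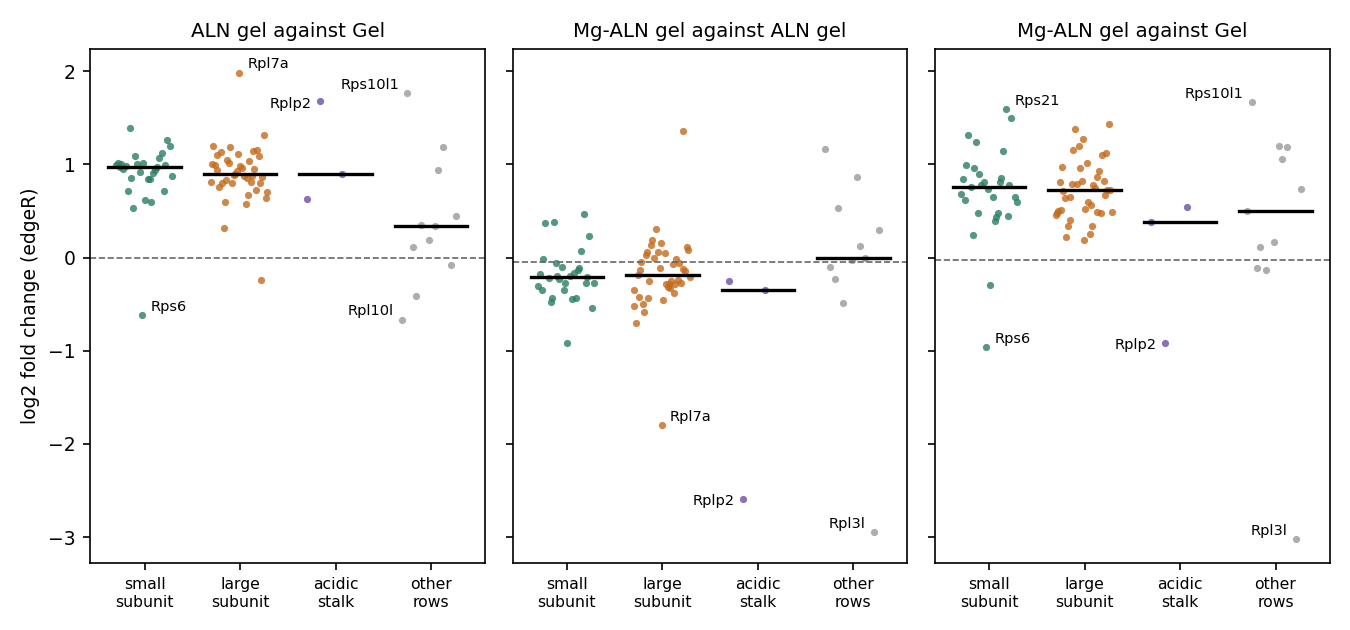
Each point is the edgeR log2 fold change of 1 tested row, in columns by role, with black bars for the median of a column and a dashed line for the median of all tested genes; other rows are symbols outside the standard list. Most small and large subunit genes lie above 0 against Gel, Rps6 lies below 0, and Rplp2 and Rpl3l lie far below the rest for Mg-ALN gel set against ALN gel.

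Small subunit genes numbered 29 tested rows, 28 of them positive in ALN gel against Gel with a median log2 fold change of 0.97. In 24 every ALN gel library lay above every Gel library (11.1% of all genes). Rps20, a protein of the head of the small subunit, had the lowest unadjusted p of all ribosomal protein rows in that comparison, 0.00199, and is named for that after its values were seen. It stood at 762, 620 and 677 CPM in Mg-ALN gel, 859, 859 and 686 CPM in ALN gel, and 457, 403 and 361 CPM in Gel. Every library of both drug groups lay above every Gel library, with a log2 fold change of 0.98 ± 0.23 (SE) for ALN gel against Gel and an adjusted p of 0.505 (edgeR's quasi-likelihood test, Benjamini-Hochberg). Rps12 reached 818, 619 and 468 CPM in ALN gel, against 175, 314 and 236 CPM in Gel, a log2 fold change of 1.39 ± 0.38 (SE). In Mg-ALN gel it had 687, 435 and 286 CPM, which overlaps Gel. The Rps12 row held 51.2% of the counts of its protein family, and with all family rows summed the log2 fold change of ALN gel against Gel was 1.01 ± 0.33 (SE). Rps21, the shortest gene of the set, had 705, 262 and 259 CPM in Mg-ALN gel, against 164, 141 and 102 CPM in Gel, with a log2 fold change of 1.59 ± 0.43 (SE). Mg-ALN gel library 1 was far above the other libraries, and in ALN gel it had 390, 245 and 253 CPM. Rps19, mutated in Diamond-Blackfan anaemia in humans, had 154, 144 and 150 CPM in Mg-ALN gel, 234, 245 and 174 CPM in ALN gel, and 146, 50.3 and 89.6 CPM in Gel. All ALN gel values of the Rps19 row lay above those of both other groups. Its log2 fold changes were 1.19 ± 0.35 (SE) for ALN gel against Gel and −0.54 ± 0.35 (SE) for Mg-ALN gel against ALN gel. Adjusted p-values were 0.528 and 0.649 in edgeR's test with Benjamini-Hochberg adjustment. With all family rows summed, ALN gel (454, 377 and 251 CPM) overlapped Mg-ALN gel (308, 227 and 204 CPM). The summed ALN gel values stayed above Gel, with a log2 fold change of 0.91 ± 0.30 (SE). Rpsa, which also serves as a laminin receptor at the cell surface, was among the flatter genes, at 2611, 1429 and 1326 CPM in Mg-ALN gel, 2072, 2082 and 1427 CPM in ALN gel, and 1660, 1160 and 1033 CPM in Gel.

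Rps6, the protein phosphorylated by S6 kinases downstream of mTOR, had negative fold changes in the row under its name. That row averaged 56.5 FPKM, against a median of 799 FPKM over the tested standard rows. All rows described as this protein held 7687 counts, and how much of its messenger RNA they capture was not tested. The Rps6 row had 34.2, 31.7 and 29.9 CPM in Mg-ALN gel, 42.8, 47.7 and 30.9 CPM in ALN gel, and 69.1, 21.4 and 95.7 CPM in Gel. The Gel libraries spread most and overlapped the others, and Gel library 2 was the lowest of all 9. Its log2 fold changes were −0.62 ± 0.45 (SE) for ALN gel against Gel and −0.96 ± 0.45 (SE) for Mg-ALN gel against Gel. Adjusted p-values were 0.768 and 0.531 (edgeR's quasi-likelihood test, Benjamini-Hochberg). With the counts of the row's copies added, the log2 fold changes stayed negative, at −0.31 and −0.66.

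Large subunit genes numbered 41 tested rows. In ALN gel against Gel 40 were positive, with a median log2 fold change of 0.90, and in 28 every ALN gel library lay above every Gel library (11.1% of all genes). In Mg-ALN gel against Gel all 41 were positive, with a median of 0.72. Rpl5 and Rpl11, which with 5S rRNA form a particle that restrains MDM2 and thereby stabilises p53, stayed close to the library medians of the set, with an SD of 0.15 for Rpl5 and 0.09 for Rpl11 around them on the log2 scale. Rpl5 had 1099, 735 and 657 CPM in Mg-ALN gel, 1541, 1188 and 854 CPM in ALN gel, and 739, 556 and 491 CPM in Gel. Rpl11 had 779, 454 and 416 CPM in Mg-ALN gel, 899, 622 and 489 CPM in ALN gel, and 467, 344 and 301 CPM in Gel. For both genes every ALN gel library lay above every Gel library, and library 1 was the highest of its group in all 3 groups. Rpl5 had a log2 fold change of 1.004 ± 0.33 (SE) and Rpl11 of 0.85 ± 0.35 (SE) in ALN gel against Gel, with adjusted p-values of 0.536 and 0.581 in edgeR's test (Benjamini-Hochberg). Rpl39, a small protein lining the exit tunnel of the nascent chain, had 358, 224 and 289 CPM in ALN gel, against 150, 133 and 114 CPM in Gel. Its log2 fold change was 1.13 ± 0.27 (SE) and its adjusted p 0.505 in edgeR's test. Rpl41 had 3619, 1230 and 974 CPM in Mg-ALN gel, 2054, 1450 and 1191 CPM in ALN gel, and 1079, 787 and 683 CPM in Gel. Mg-ALN gel library 1 was far above the other libraries, and the group means were 1941 ± 1459 CPM in Mg-ALN gel, 1565 ± 443 CPM in ALN gel and 850 ± 205 CPM in Gel (SD, n = 3 each). Rpl36a, another large subunit protein, had 665, 219 and 192 CPM in Mg-ALN gel, against 167, 126 and 105 CPM in Gel, without overlap and with a log2 fold change of 1.43 ± 0.52 (SE). Rpl21 has 4 rows, of which the one with introns, on chromosome 12, ranged from 54.7 CPM in Gel library 2 to 470 CPM in Mg-ALN gel library 1.

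The acidic stalk consists of Rplp0, its base, and the Rplp1 and Rplp2 proteins bound to it. Rplp0 had 2759, 1900 and 1598 CPM in Mg-ALN gel, 2420, 3018 and 2010 CPM in ALN gel, and 1929, 1471 and 1401 CPM in Gel. Rplp1 had 1596, 1002 and 757 CPM in Mg-ALN gel, 1642, 1460 and 1180 CPM in ALN gel, and 970, 706 and 629 CPM in Gel. For both genes all ALN gel libraries lay above all Gel libraries, while Mg-ALN gel overlapped both groups. The row named Rplp2 had 16.8, 20.8 and 7.81 CPM in Mg-ALN gel, 141, 79.1 and 54.0 CPM in ALN gel, and 51.3, 5.92 and 28.5 CPM in Gel. Its Mg-ALN gel libraries were all far below its ALN gel libraries. Mg-ALN gel against ALN gel gave a log2 fold change of −2.59 ± 0.73 (SE), with no overlap and an adjusted p of 0.496 in edgeR's test (Benjamini-Hochberg). The row held only 27.6% of the counts of the rows described as this protein; another row, LOC498555, held 14239 counts against 5932 in the Rplp2 row. With those rows summed, the values were 210, 131 and 108 CPM in Mg-ALN gel, 274, 214 and 164 CPM in ALN gel, and 172, 81.3 and 87.6 CPM in Gel. The summed values gave a log2 fold change of −0.54 ± 0.37 (SE), with overlap, which is the same direction as in the Rplp2 row and a smaller difference.

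Most of the proteins had nearly all their counts in the symbols described here. By the protein named in the deposited descriptions, 636 rows fell into 74 ribosomal protein families. The symbols described here held at least 90% of the counts in 53 families and under 50% in 7, among them Rpl8 (18.7%), Rpl13a (29.4%) and Rpl7a (42.1%), and Rpl10a and Rpl23a (0%). No source used here says how the authors counted reads that match several rows, which makes the values of these rows uncertain. With all rows of a family summed, 73 of 76 sums were positive in ALN gel against Gel, with a median log2 fold change of 0.89. In 57 every ALN gel library lay above every Gel library (10.9% of all features of that fit). In Mg-ALN gel against ALN gel 16 were positive (median −0.19), and in Mg-ALN gel against Gel 73 (median 0.73). edgeR's test called 0 sums in each comparison after Benjamini-Hochberg adjustment (0% of all features).

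Rps27a has its counts in a pair of rows under 1 symbol. The gene encodes ubiquitin fused to a small subunit protein and has a row with introns on chromosome 14 (chr14:113966611-113968268 in the deposited table, whose build is not given in the sources used here) and a row without introns on chromosome 5 (chr5:138628482-138629026). The chromosome 14 row had 1143, 373 and 531 CPM in Mg-ALN gel, 582, 776 and 384 CPM in ALN gel, and 311, 223 and 193 CPM in Gel. The chromosome 5 row had 168, 594 and 293 CPM in Mg-ALN gel, 934, 387 and 665 CPM in ALN gel, and 551, 381 and 358 CPM in Gel. The libraries differ in which row is the larger: the chromosome 14 row held 87.2% of the sum in Mg-ALN gel library 1, 64.5% in Mg-ALN gel library 3 and 66.7% in ALN gel library 2, and 35.0% to 38.6% in the other 6 libraries. The sums, 1311, 967 and 824 CPM in Mg-ALN gel, 1516, 1163 and 1049 CPM in ALN gel, and 862, 604 and 551 CPM in Gel, put every ALN gel library above every Gel library. The highest sum was 2.75 times the lowest, against 5.93 times for the chromosome 14 row and 5.56 times for the chromosome 5 row.

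**Figure D3:**
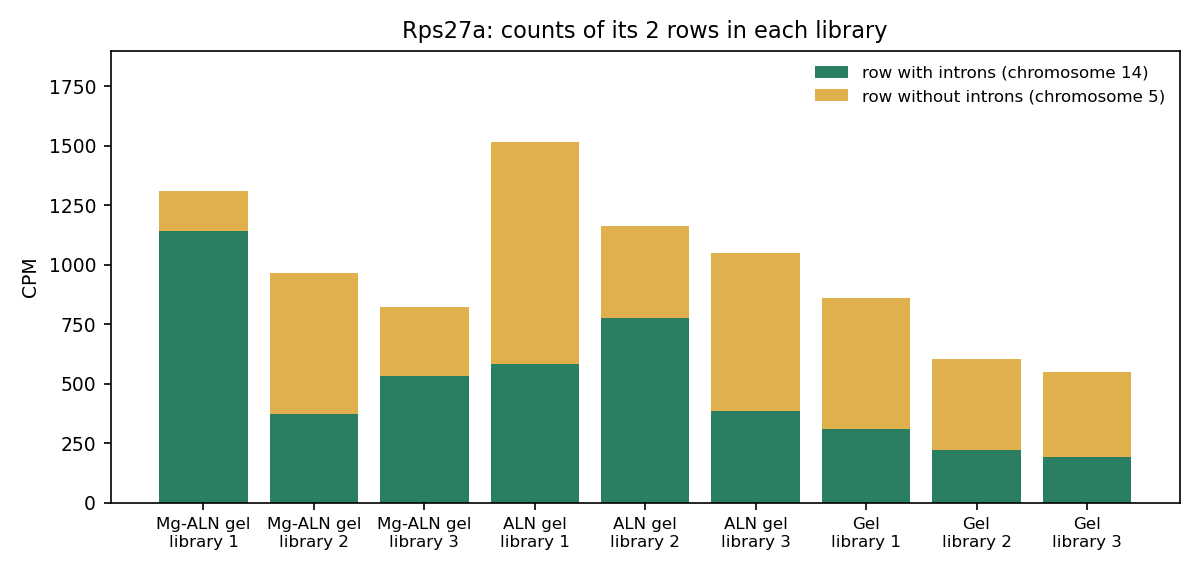
Stacked bars give the CPM of the Rps27a row with introns (green) and the row without introns (yellow) in each library. The green share is 87.2% in Mg-ALN gel library 1 and 35.0% in Gel library 3, and the summed bars run from 551 CPM in Gel library 3 to 1516 CPM in ALN gel library 1.

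Rpl7a has its pair of rows on chromosome 3, both with introns and both 798 bases long. The row starting at 4867233 had 38.1, 76.0 and 203 CPM in Mg-ALN gel, 31.2, 59.1 and 33.5 CPM in ALN gel, and 92.0, 33.0 and 21.1 CPM in Gel. The row starting at 5459160 had 34.2, 22.3 and 8.003 CPM in Mg-ALN gel, 152, 46.1 and 26.1 CPM in ALN gel, and 21.6, 18.79 and 16.2 CPM in Gel. Set against ALN gel, Mg-ALN gel gave opposite fold changes for them, 1.36 and −1.80 on the log2 scale. With all rows of the family summed, that fold change was −0.12 ± 0.34 (SE).

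Rows outside the standard list are paralogs, some of them tissue-specific, and copies. Of 11 tested, 8 were positive in ALN gel against Gel, with a median log2 fold change of 0.34 against 0.94 for the 73 standard rows; the difference was not tested. Rpl3l, which replaces Rpl3 in ribosomes of skeletal muscle and heart, had 1.97, 0.298 and 2.73 CPM in Mg-ALN gel, 27.4, 1.07 and 10.1 CPM in ALN gel, and 13.03, 0.339 and 27.3 CPM in Gel. It varied more than any other tested row, and its groups overlap in every comparison. Its log2 fold change in Mg-ALN gel against Gel was −3.02 ± 1.46 (SE), with an adjusted p of 0.536 in edgeR's test (Benjamini-Hochberg). Sums over 8 of 10 muscle markers were 207, 125 and 8.003 CPM in Mg-ALN gel, 2258, 52.8 and 1245 CPM in ALN gel, and 63.2, 78.8 and 10236 CPM in Gel. All 8 tested muscle markers had negative fold changes in each comparison, and Myh1, Ckm, Actn3 and Pvalb were at 0 in some libraries; the part of muscle in the Rpl3l values was not tested. Rpl3 itself had 974, 855 and 794 CPM in Mg-ALN gel, 1171, 1238 and 867 CPM in ALN gel, and 919, 681 and 599 CPM in Gel.

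Rps10l1, an intronless row, had 79.2, 55.6 and 53.6 CPM in Mg-ALN gel, 117, 50.7 and 34.2 CPM in ALN gel, and 22.6, 19.7 and 16.9 CPM in Gel. Neither drug group overlapped Gel, with log2 fold changes of 1.67 ± 0.42 (SE) for Mg-ALN gel against Gel and 1.77 ± 0.42 (SE) for ALN gel against Gel. Adjusted p-values were 0.530 and 0.505 (edgeR's quasi-likelihood test, Benjamini-Hochberg). Its partner Rps10 had 926, 369 and 393 CPM in Mg-ALN gel, 785, 764 and 540 CPM in ALN gel, and 481, 303 and 268 CPM in Gel, and the counting may split reads between the pair. Rpl22l1, a paralog of Rpl22, had 185, 99.0 and 131 CPM in Mg-ALN gel, 149, 108 and 125 CPM in ALN gel, and 86.9, 66.2 and 46.3 CPM in Gel, again with both drug groups above Gel. Rps27l, a paralog of Rps27 induced by p53 in human cells, had 126, 90.7 and 83.8 CPM in Mg-ALN gel, 92.4, 66.7 and 86.5 CPM in ALN gel, and 63.2, 66.0 and 50.8 CPM in Gel. Rps4y2, an intronless row on chromosome 4, had 20.7, 15.7 and 14.5 CPM in Mg-ALN gel, 9.31, 9.41 and 9.18 CPM in ALN gel, and 7.54, 10.04 and 4.51 CPM in Gel. It was highest in Mg-ALN gel with no overlap with either group, with a log2 fold change of 0.87 ± 0.32 (SE) against ALN gel and an adjusted p of 0.502 in edgeR's test. Rpl10l, an intronless paralog that serves in male germ cells in the mouse, had 7.72, 3.34 and 7.18 CPM in Mg-ALN gel, 1.86, 3.14 and 3.10 CPM in ALN gel, and 8.04, 3.10 and 1.76 CPM in Gel, with Mg-ALN gel above ALN gel in every library. Of the standard partners, Rps4x on chromosome X had 781, 688 and 649 CPM in Mg-ALN gel, 1048, 1043 and 847 CPM in ALN gel, and 739, 544 and 507 CPM in Gel. In that row the ALN gel libraries lay above both other groups. With all rows of its family summed, ALN gel (1325, 1288 and 1013 CPM) stayed above Gel and overlapped Mg-ALN gel (1024, 823 and 807 CPM). The Rpl30 row overlapped between all groups, at 377, 212 and 115 CPM in Mg-ALN gel, 215, 232 and 246 CPM in ALN gel, and 218, 207 and 130 CPM in Gel. The Rpl30 and Rpl30l1 rows held 55.8% of the counts of their family. With all family rows summed, both drug groups lay above Gel without overlap. The summed log2 fold changes were 0.98 ± 0.29 (SE) for ALN gel and 0.78 ± 0.28 (SE) for Mg-ALN gel against Gel. Adjusted p-values were 0.530 and 0.535 in edgeR's test (Benjamini-Hochberg). Rpl39l, Rps9l1, Rps19l2 and Rpl7l1 had log2 fold changes of −0.41 to 0.35 in ALN gel against Gel, and Rps18l1 had 1.19 ± 0.46 (SE) there.

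Gene length moved with the values in some libraries. In Mg-ALN gel library 1 the centred median was 0.92 for the 28 shortest rows (246 to 542 bases), 0.59 for the next 28 and 0.47 for the 28 longest (897 to 5151 bases). All tested genes of the same length ranges showed 0.58, 0.54 and −0.01 in that library, and 0.57, 0.36 and 0.06 in ALN gel library 1. In Gel library 3 they showed −0.31, −0.33 and 0.01, where the 3 sets of ribosomal protein rows were at −0.88, −0.86 and −0.76. The 28 longest rows had a median log2 fold change of 0.86 in ALN gel against Gel and 0.54 in Mg-ALN gel against Gel. Their length range held 12023 of the 15460 tested genes. The scaling therefore tends to keep the median of that range near 0, and it gives no separate comparison for length. The part of transcript length in these values was not tested.

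**Figure D4:**
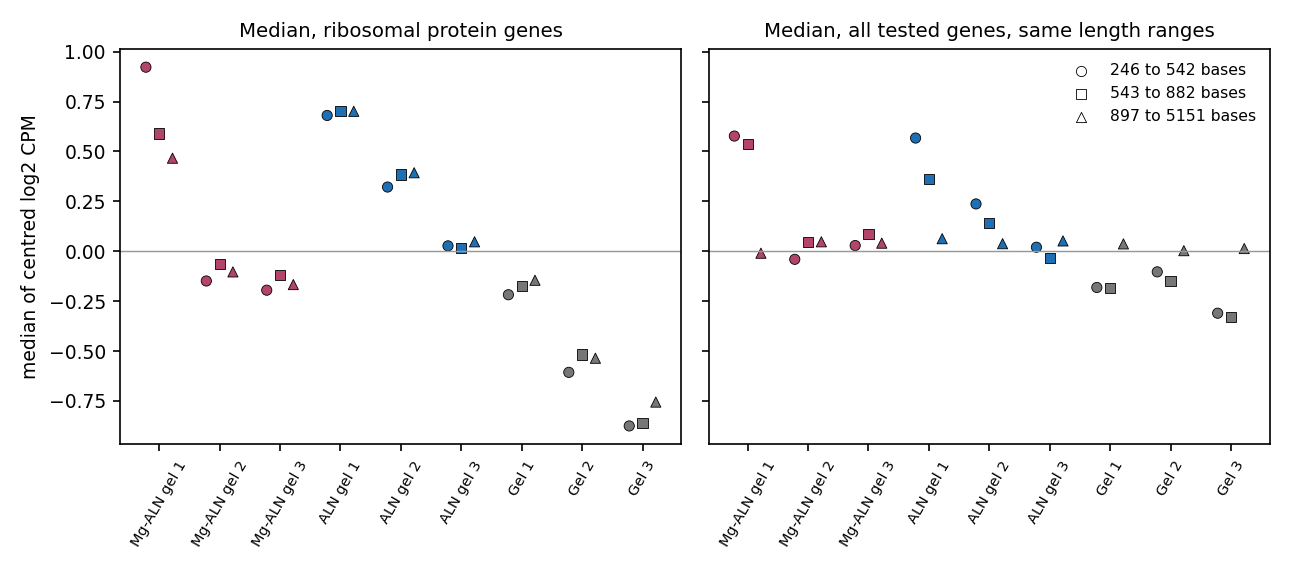
Medians of centred log2 CPM by library for ribosomal protein rows in 3 length ranges (left) and for all tested genes of the same ranges (right). Short genes of both kinds are high in Mg-ALN gel library 1, at 0.92 and 0.58. The long ribosomal protein rows run from −0.76 in Gel library 3 to 0.70 in ALN gel library 1, where long genes in general are at 0.01 and 0.06. The long range holds most tested genes, so the scaling tends to keep its median near 0.

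Markers of osteoclasts, the bone-resorbing cells that bisphosphonates act on, also had unequal levels. The summed level of 10 osteoclast markers was 3675 to 12242 CPM in Mg-ALN gel, 21279 to 31083 CPM in ALN gel and 2158 to 17976 CPM in Gel, and 1 of the 10, Dcstamp, was at 0 in some libraries. All 9 tested markers had positive fold changes in ALN gel against Gel and negative ones when Mg-ALN gel was set against ALN gel, and 0 passed edgeR's test after adjustment. Osteoclast sums in ALN gel libraries 1 to 3 were 31083, 27140 and 21279 CPM, beside ribosomal protein medians of 0.69, 0.38 and 0.03. Gel libraries had sums of 17976, 4154 and 2158 CPM beside medians of −0.17, −0.56 and −0.83. In both groups the sums and the medians had the same order. In Mg-ALN gel the sums were 3675, 10920 and 12242 CPM beside medians of 0.67, −0.10 and −0.16, the opposite order. Erythroid markers had the same fold change signs as the osteoclast markers in those comparisons, in 9 of 9 tested genes. Their sums were 3.57 to 350 CPM in Mg-ALN gel, 33.1 to 399 CPM in ALN gel and 9.65 to 249 CPM in Gel. Hemgn, Epb42, Rhag and Tspo2 were at 0 in some libraries. Neutrophil markers stood out in Mg-ALN gel library 1: the sum of all 10 was 8482, 696 and 2171 CPM in Mg-ALN gel, 560, 563 and 94.6 CPM in ALN gel, and 143, 1257 and 854 CPM in Gel, and Mpo and Ltf were at 0 in some libraries. Of 9 tested neutrophil markers, 8 were positive in Mg-ALN gel against Gel and 7 for Mg-ALN gel set against ALN gel, with 0 called. In ALN gel against Gel they were split, with 5 positive and 4 negative. Their log2 fold changes there ran from −2.59 to 2.01, with a median of 1.52 and 0 called. The part of these cells in the ribosomal protein values was not tested.

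Other genes in or on the ribosome, outside the symbol rule, also had positive fold changes against Gel. Fau encodes a small subunit protein fused to a ubiquitin-like sequence, Rpl36al is a paralog of Rpl36a, and Rack1 is a scaffold on the small subunit. All 3 had positive fold changes in ALN gel against Gel without overlap (11.1% of all genes), with a median log2 fold change of 1.01. In edgeR's test 2 had an unadjusted p under 0.05 (5.78% of all genes were higher at that p). After Benjamini-Hochberg adjustment 0 passed (0% of all genes). Rack1 averaged 679 ± 162 CPM in Mg-ALN gel, 954 ± 187 CPM in ALN gel and 600 ± 117 CPM in Gel (SD, n = 3 each).

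Among the lists of the wider pathway, 0 genes passed edgeR's test after adjustment in any comparison. In ALN gel against Gel, the genes higher at an unadjusted p under 0.05 numbered 2 of 15 translation factors, 2 of 25 ribosome assembly genes, 0 of 12 RNA polymerase I genes (1 was lower) and 0 of 15 growth signalling genes (5.78% of all genes were higher and 2.42% lower). Of 15 translation factors, 14 were positive in ALN gel against Gel (median log2 fold change 0.47), and 12 were negative for Mg-ALN gel set against ALN gel (median −0.34). Eif3l, a subunit of the initiation factor that binds the small subunit, averaged 94.6 ± 14.8 CPM in Mg-ALN gel, 142 ± 21.7 CPM in ALN gel and 104 ± 19.1 CPM in Gel (SD, n = 3 each). Of 25 ribosome assembly genes, which act in the nucleolus on the precursor particles, 20 were positive in ALN gel against Gel with a median of 0.24. Fbl, the methyltransferase of ribosomal RNA, averaged 48.7 ± 5.90 CPM in Mg-ALN gel, 41.0 ± 9.93 CPM in ALN gel and 30.0 ± 4.76 CPM in Gel. RNA polymerase I genes, which make the precursor of ribosomal RNA, were split, with 7 of 12 positive and a median of 0.10. Growth signalling genes around mTOR and Myc were split as well, with 8 of 15 positive and a median of 0.07. Eif4ebp1, a translation repressor that mTOR inactivates, averaged 87.5 ± 11.2 CPM in Mg-ALN gel, 66.5 ± 9.65 CPM in ALN gel and 56.0 ± 8.001 CPM in Gel. In Polr1c, a subunit shared by RNA polymerases I and III, the means were 27.9 ± 5.79 CPM in Mg-ALN gel, 20.2 ± 1.29 CPM in ALN gel and 15.6 ± 2.60 CPM in Gel.

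The pattern was shared in direction with other particles. Of 76 tested mitochondrial ribosomal protein genes, 75 were positive in ALN gel against Gel (median log2 fold change 0.56) and 74 in Mg-ALN gel against Gel (median 0.58), with a median of −0.02 between Mg-ALN gel and ALN gel. All 37 tested proteasome subunits were positive in ALN gel against Gel (median 0.39) and 36 in Mg-ALN gel against Gel (median 0.54). At an unadjusted p under 0.05 in ALN gel against Gel, 24 of the 76 mitochondrial ribosomal protein genes and 10 of the 37 proteasome genes were higher (5.78% of all genes). In Mg-ALN gel against Gel 27 of the 76 and 19 of the 37 were higher at that p, beside 30 of the 84 cytosolic rows (5.43% of all genes). Every Mg-ALN gel library lay above every Gel library in 37 of the 76, 31 of the 37 and 29 of the 84 (9.76% of all genes). The cytosolic ribosomal proteins had larger medians in both comparisons. In Mg-ALN gel against Gel their share without overlap was smaller than that of either other set. By unadjusted p their share there was close to that of the mitochondrial ribosomal proteins and smaller than that of the proteasome subunits. Whether the sets differ was not tested.

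**Figure D5:**
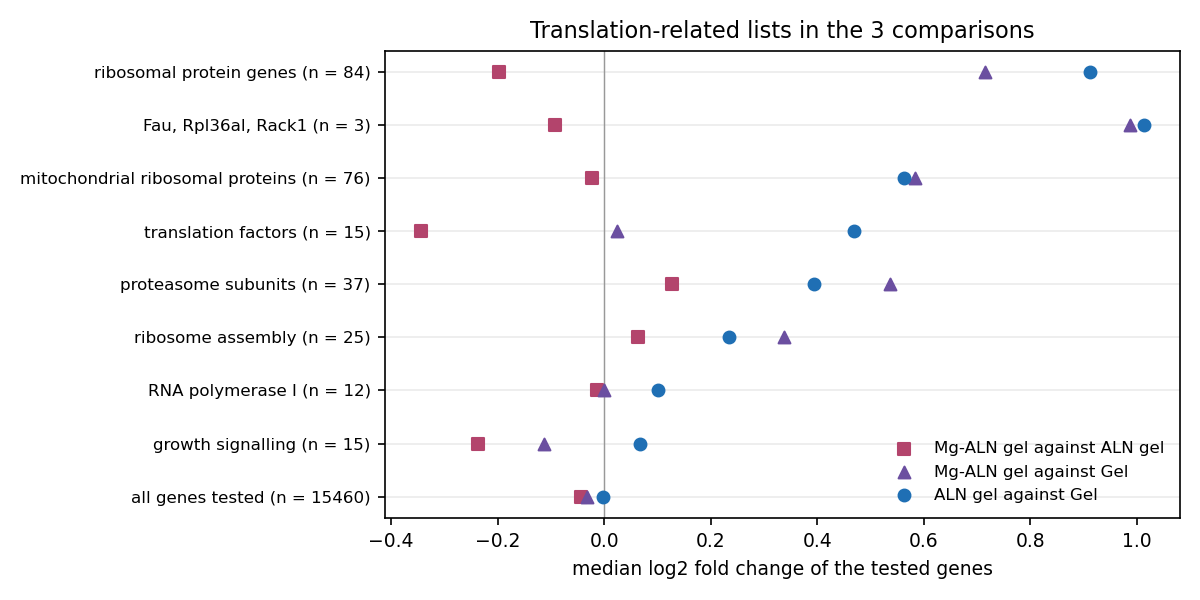
Median log2 fold change of each gene list in the 3 comparisons, with the number of tested genes in brackets. The ribosomal protein genes and the 3 related genes lie furthest right of the lists drawn here in ALN gel against Gel, at 0.91 and 1.01, and RNA polymerase I and growth signalling genes lie near the median of all genes.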

How the data were processed

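Counts per gene were deposited by the authors as whole numbers without normalization, and the authors also deposited FPKM values, used here only for levels per gene length. Per the submitters' processing notes, edgeR 3.22.5, DESeq2 1.20.0, featureCounts 1.5.0-p3, StringTie 1.3.3b, HISAT2 2.0.5 and fastp were used, with no word on what each did. The genome build is not given in the sources used here. Per the labels' protocols, RNA was selected with poly-T beads and primed with random hexamers, with no mention of strand marking, so values of overlapping genes are uncertain. Libraries were grouped by their titles.

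The tests used edgeR 4.0.16 under R 4.3.3. Its filterByExpr defaults kept 15460 of 35360 genes, libraries were scaled by TMM, and all 9 libraries entered 1 quasi-likelihood fit, in which each group had its own coefficient. Two-sided p-values were adjusted by the Benjamini-Hochberg method over all tested genes, with a threshold of 0.05. Each SE came from the fold change and its F statistic (their quotient after taking the root of F). CPM values use the scaled library sizes, and log2 CPM a prior count of 0.5. Alternatives included DESeq2 1.42.0, limma 3.58.1 (voom with quality weights), other scalings, no filter, a replicate block, and leaving out libraries. The common biological coefficient of variation was 51.4%. The model was tested on simulated data. The genes and lists were chosen with earlier results of these data known. Named genes were fixed ones, the extremes of level, fold change and spread, all paralogs and their partners, and the lowest joint p of each pathway list. A further related gene, beside those named, is not reported here.

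Deviations from group means correlated across genes for libraries of the same number with r = 0.341, 0.419 and 0.226 between ALN gel and Gel. Pairs of unlike number there had r from −0.283 to −0.0125. Deviations within a group cancel, so positive values at the same number push these down, and they are no separate sign of pairing. The block counts as a possible pairing read from the data. Mg-ALN gel library 2 and ALN gel library 3, of unlike number, reached r = 0.320. These values cannot tell a pairing from another trait that libraries of the same number share. With Mg-ALN gel the values were 0.130, −0.120 and −0.127 against ALN gel and −0.0767, −0.0452 and −0.199 against Gel, which shows no pairing.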

Additional observations from a re-analysis of the deposited data

How the results depend on the processing

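The median log2 fold change of the ribosomal protein rows in ALN gel against Gel stayed between 0.67 and 1.09, and in Mg-ALN gel against Gel between 0.35 and 0.87, under every alternative tried. Between Mg-ALN gel and ALN gel it ran from −0.51 to 0.13, with −0.40 in limma-voom. The number of rows passing adjustment was 0 in every edgeR fit. DESeq2 gave 5 in ALN gel against Gel, 1 between Mg-ALN gel and ALN gel, 1 in Mg-ALN gel against Gel and 3 among the 3 groups (0.959%, 1.22%, 0.332% and 1.71% of all genes), and limma-voom gave 16 in ALN gel against Gel (1.7%). With the replicate block the medians were 0.91, −0.22 and 0.71, with 0 rows called. In the block over only ALN gel and Gel the median was 0.91 with 0 called, so the block changed no call. Higher rows at an unadjusted p under 0.05 in ALN gel against Gel numbered 68 with the block (6.57% of all genes), 53 without it (5.78%) and 69 over 2 groups (9.13%). In Mg-ALN gel against Gel they numbered 51 with it (6.61%) and 30 without it (5.43%). The block gave 7 lower rows between Mg-ALN gel and ALN gel, against 2 (5.43% of all genes in each fit). Without scaling factors the median of all genes was −0.18 in ALN gel against Gel and −0.23 in Mg-ALN gel against Gel. The ribosomal protein medians were then 0.71 and 0.52. At an unadjusted p under 0.05, 29 and 13 rows were higher (2.70% and 2.06% of all genes). At that p 0 and 2 rows were lower (2.74% and 5.69%). Leaving out 1 library at a time gave medians of 0.71 to 1.09, −0.51 to 0.01 and 0.38 to 0.87 in the 3 comparisons. Added after seeing the data were the summed copies, the mitochondrial share as a covariate, the 2 fits without 2 libraries each, and the block over 2 groups. With the covariate the medians were 0.78, −0.12 and 0.63. In ALN gel against Gel 23 rows were then higher at an unadjusted p under 0.05 (3.29% of all genes). For single named genes, 18 of 840 recomputed fold changes in ALN gel against Gel changed sign, 73 of 800 between Mg-ALN gel and ALN gel and 26 of 800 in Mg-ALN gel against Gel, none of them past the threshold. Each group had 3 libraries, and the common coefficient of variation of 51.4% limits what these fits can call.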
